A study of Mus musculus with 3 samples.

Results

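Colonic gene expression in IL-4Rα-/- mice given dextran sulfate sodium (DSS) was set against that of untreated wild-type (WT) mice, to describe which transcripts differed from the untreated colon in mice with mild disease. The comparison took every probe set of the array that carried a single gene symbol, 21789 of 28944 in all and 19938 distinct genes, and subtracted the log2 signal of WT normal from that of IL-4Rα-/- colitis. RNA came from distal colon tissue of male BALB/c mice aged 10 to 12 weeks, collected on day 7, and the IL-4Rα-/- mice carried the Il4ra tm1Sz allele and were littermates of the WT mice. The WT normal group drank water, whereas the WT colitis and IL-4Rα-/- colitis groups drank 3% DSS. RNA was pooled from 4, 3 and 6 mice, respectively, and each pool was run on 1 array. The pool of IL-4Rα-/- colitis mice is called knockout colitis in the following. The study describes no array of untreated IL-4Rα-/- mice, so genotype and DSS cannot be told apart in this comparison. With 1 array per group, differences in expression have no replicate error and no test, and genes are described as higher or lower only.

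IL-4Rα is the chain through which both interleukin (IL)-4 and IL-13 signal, and it activates the transcription factor STAT6. In the gut these type 2 cytokines are known for acting on goblet and other secretory epithelial cells, on mast cells and on macrophages, in particular during worm infection. DSS damages the colonic epithelium, and the bacteria that then reach the mucosa elicit antimicrobial lectins, acute-phase proteins and nitric oxide synthesis.

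The labels list 3 measures for each pooled mouse. Body weight ranged from 95.1% to 100.8% of the initial weight in the 6 knockout colitis mice, with a median of 96.65%, and was 97.6%, 103.5%, 101.9% and 104.0% in the WT normal mice. The groups overlapped. The means were 97.3 ± 2.28% (SD, n = 6) and 101.75 ± 2.91% (SD, n = 4), a difference of -4.48 (exact permutation test, two-sided, p = 0.0381, adjusted p = 0.114 over 3 measures). The disease activity index, the mean of a stool and a bleeding score, was 0 in each of the 4 WT normal mice and 0, 0, 1, 1, 1 and 3 in the knockout colitis mice (exact permutation test, two-sided, p = 0.143, adjusted p = 0.143). Colon length was 8.2 cm in the knockout colitis mouse with the index of 3 and 10.0 to 11.3 cm in the others of that pool, against 10.5 to 12.6 cm in WT normal. The means of 10.3 ± 1.14 cm (SD, n = 6) and 11.45 ± 1.01 cm (SD, n = 4) differed by -1.13 cm (exact permutation test, two-sided, p = 0.143, adjusted p = 0.143). The smallest p that 210 regroupings of these mice can give is 0.00476, and none of the 3 measures passed 0.05 after adjustment. In the WT colitis pool the means were 80.2% for weight, 3.67 for the index and 8.0 cm for colon length.

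**Figure D1:**
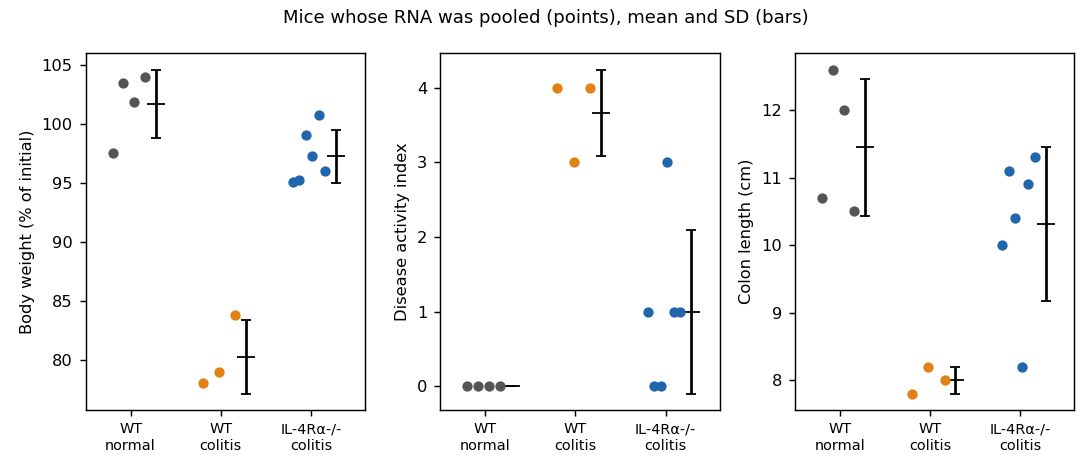
Body weight (% of initial), disease activity index and colon length (cm) of each mouse whose RNA was pooled, 1 point per mouse, with the mean and SD of each group as bars. The 6 knockout colitis mice lie at 95.1% to 100.8% of initial weight, and 1 of them has an index of 3 and a colon of 8.2 cm.

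The log2 signals had a median of 4.11 in knockout colitis, 4.18 in WT colitis and 4.11 in WT normal. As a guide to background, 1212 probe sets for olfactory and vomeronasal receptors, which the colon is not known for expressing, had a median log2 signal of 2.44 and a 95th percentile of 3.5. A log2 signal of 4 was therefore taken as the floor, and where the lower of 2 signals fell below it, the fold is given as "at least", computed against that floor. On both arrays, 55.1% of the single-symbol probe sets were at or above the floor. The colon markers Car1 (carbonic anhydrase 1; 12.80 and 12.83), Muc2 (the secreted mucin of goblet cells; 12.83 and 12.71), Slc26a3 (a chloride exchanger; 10.11 and 10.01), Cdx2 (7.17 and 7.48), Hoxd10 (5.19 and 5.52) and Hoxb13 (7.92 and 7.44) had log2 signals above the floor, given here for WT normal and then for knockout colitis. On the WT colitis array, Hoxb13 had 5.47 and Slc26a3 had 9.05, which were 5.46-fold and 2.08-fold below WT normal. Car1 (12.67), Muc2 (12.88), Cdx2 (7.59) and Hoxd10 (5.53) differed there from WT normal by at most 0.42. Fcgbp, also chosen as a colon marker, was not among the single-symbol genes. Il4ra, which the knockout targets, had a signal of 4.76 in knockout colitis, 1.91-fold below the 5.69 of WT normal, and one of 6.63 in WT colitis. The knockout signal lay above the floor, and whether the probes read the deleted part of Il4ra was not given in the sources used here. By qPCR, the study reported a complete loss of Il4ra mRNA in the colon of untreated IL-4Rα-/- mice.

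Most deposited values were close in both pools. Of the 21789 probe sets, 14243 (65.4%) had identical values on both arrays to the 2 deposited decimals, and 21323 (97.9%) lay within 0.5 on the log2 scale. How the values were summarised and normalized was not given in the sources used here, so identical values are not read as equal expression, nor is a list median of 0. More than 4-fold higher in knockout colitis were 5 probe sets (0.0229%), and more than 4-fold lower were 32 (0.147%). At more than 2-fold, 40 were higher (0.184%) and 68 lower (0.312%). The differences ran from -7.52 for Ctrb1 to 3.30 for Nos2. With 1 probe set a gene, the 4-fold counts were 5 (0.0251%) and 32 (0.16%), against 36 (0.181%) and 28 (0.14%) for WT colitis minus WT normal. At the lower threshold, 37 genes (0.186%) were higher and 67 (0.336%) lower, whereas WT colitis minus WT normal gave 231 (1.16%) higher and 91 (0.456%) lower. Both differences are taken from the same WT normal array. Over all genes, knockout colitis had 16.4% above WT normal and 17.9% below it, and the list counts given below stand beside these shares. Just inside the 4-fold threshold lay Reg3b (2.24) and, on the lower side, Ccn1, Fos and Try10 (-2.05 each), and just outside it lay Reg3g (1.90) and Ch25h (-1.96).

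**Figure D2:**
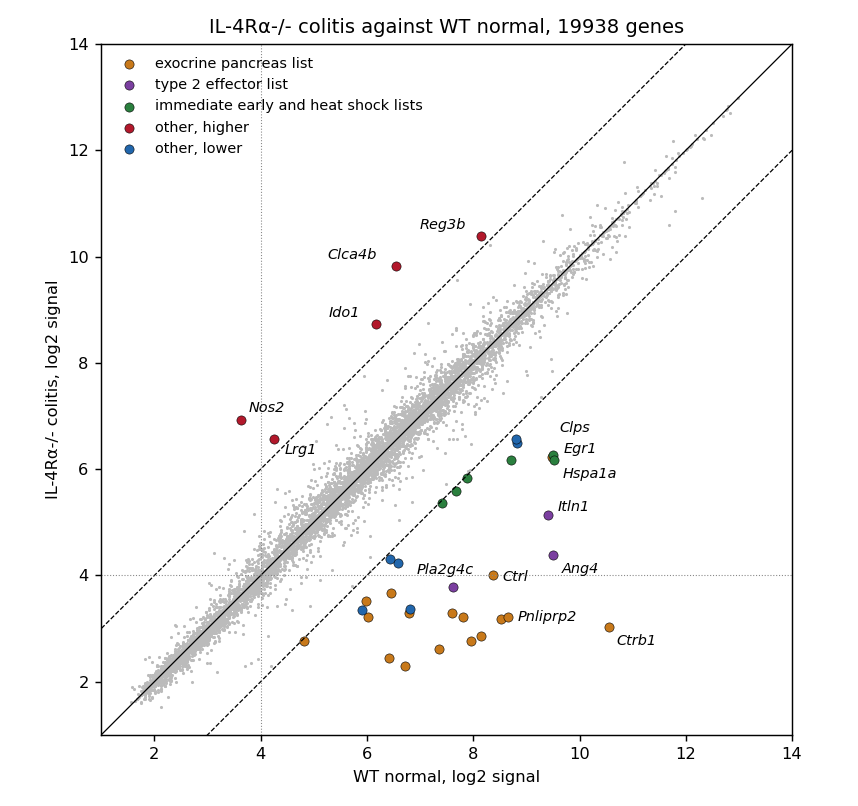
Log2 signal of 19938 genes in WT normal (x axis) and knockout colitis (y axis), 1 probe set a gene. Dashed lines mark a 4-fold difference, dotted lines the floor of 4, and colours the genes past 4-fold by list. The 5 higher genes lie at 6.56 to 10.39 on the y axis, and most exocrine pancreas genes lie below its dotted line.

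The genes more than 4-fold lower comprised those that were low in both DSS pools and those that were low in knockout colitis alone. The latter, defined as less than 2-fold below WT normal in WT colitis, were the 5 genes Pnliprp2, Ang4, Itln1, Pla2g4c and Clps. All of them but Clps had already been picked by the study for their difference between the DSS pools. Of the 5, 4 had a promoter in the RefSeq table (build GRCm38.p6), as had 3 of the 5 genes that were more than 4-fold higher. The 250 bases before the start of the gene are shown for these lower genes, since they share a pattern across the arrays, and for Reg3b, a higher gene with a match; the other higher genes with an entry, Clca4b and Lrg1, had neither motif searched here. Capitals mark a match to TTCNNNNGAA, the spacing known for STAT6, or TTCNNNGAA, the spacing known for other STAT proteins. Each motif reads the same on both strands, and the genome is that of C57BL/6J, not BALB/c. The positions are chr14:51773591-51773840, minus strand, for Ang4, chr1:171535295-171535544, minus strand, for Itln1, chr7:13325417-13325666, plus strand, for Pla2g4c (the more upstream of 2 starts), chr19:58759473-58759722, plus strand, for Pnliprp2, and chr6:78370635-78370884, plus strand, for Reg3b.
Ang4: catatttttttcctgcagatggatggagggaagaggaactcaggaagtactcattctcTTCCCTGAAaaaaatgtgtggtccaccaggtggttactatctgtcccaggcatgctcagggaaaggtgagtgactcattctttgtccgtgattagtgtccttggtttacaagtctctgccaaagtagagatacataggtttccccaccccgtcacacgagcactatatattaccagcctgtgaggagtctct
Itln1: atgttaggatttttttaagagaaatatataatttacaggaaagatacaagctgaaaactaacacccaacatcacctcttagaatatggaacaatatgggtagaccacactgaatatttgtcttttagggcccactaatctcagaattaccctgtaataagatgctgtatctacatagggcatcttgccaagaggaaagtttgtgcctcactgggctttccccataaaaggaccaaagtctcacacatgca
Pla2g4c: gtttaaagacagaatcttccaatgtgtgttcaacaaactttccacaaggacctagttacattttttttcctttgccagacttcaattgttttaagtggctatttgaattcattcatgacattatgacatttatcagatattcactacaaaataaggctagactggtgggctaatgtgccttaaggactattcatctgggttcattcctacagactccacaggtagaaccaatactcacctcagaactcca
Pnliprp2: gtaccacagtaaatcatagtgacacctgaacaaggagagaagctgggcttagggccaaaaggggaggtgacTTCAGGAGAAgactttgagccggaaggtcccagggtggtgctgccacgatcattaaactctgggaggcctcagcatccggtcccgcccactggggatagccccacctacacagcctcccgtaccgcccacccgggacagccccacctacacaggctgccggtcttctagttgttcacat
Reg3b: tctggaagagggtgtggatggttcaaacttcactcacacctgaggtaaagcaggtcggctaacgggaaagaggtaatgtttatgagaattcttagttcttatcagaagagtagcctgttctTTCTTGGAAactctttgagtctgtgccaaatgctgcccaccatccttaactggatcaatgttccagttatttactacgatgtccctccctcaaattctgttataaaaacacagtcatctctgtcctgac
TTCNNNNGAA was found in Pnliprp2, beginning 179 bases before the start, and in none of the other 3 lower genes with an entry, while 5.85% of all 32851 promoters of the same length hold it. TTCNNNGAA was found in Ang4, 192 bases before the start, and in Reg3b, 129 bases before it, and 7.02% of all promoters hold it. These matches are a description of letters and not of binding sites.

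Among the genes of type 2 immunity, the effectors Ang4, Itln1 and Pla2g4c stood far below both WT pools. Ang4, an antimicrobial ribonuclease of secretory epithelial cells, had a log2 signal of 4.39 in knockout colitis against 9.50 in WT normal and 8.63 in WT colitis. Relative to WT normal it was 34.5-fold lower. Itln1, the carbohydrate-binding lectin intelectin, had 5.14 against 9.41 and 10.53 in the same order, or 19.3-fold lower, and this probe set may also read its close paralog Itlnb. Pla2g4c, a cytosolic phospholipase A2, had 3.78 against 7.62 and 6.68, at least 12.3-fold lower. For these 3 genes the knockout colitis array alone was low, and both WT arrays were high. Mptx1, a mucosal pentraxin, is not counted in the list of type 2 effectors given below. It had 3.36 in knockout colitis, 4.85 in WT colitis and 6.81 in WT normal, at least 7.01-fold lower in knockout colitis than in WT normal. Retnla, a resistin-like molecule known as an alternative activation marker of macrophages, had 3.80, 4.60 and 5.72 in the same order, at least 3.29-fold lower. Both thus had their lowest signal in knockout colitis and an intermediate one in WT colitis.

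Of 22 type 2 effectors, knockout colitis had 7 more than 2-fold below WT normal and 2 above it, against 0.336% and 0.186% of all genes. WT colitis had 2 below and 3 above, against 0.456% and 1.16%. On all arrays, 7 of the 22 were below the floor. The list's median difference was 0 in knockout colitis, as was that of all genes, since several members had equal signals on the arrays. The 7 lower genes also included Clca1, a secreted goblet cell protease, with 11.10 in knockout colitis, 12.09 in WT colitis and 12.31 in WT normal (2.31-fold lower). Among them too were Tff2, a trefoil peptide as low in WT colitis (3.34, 3.34 and 4.58), and the eosinophil ribonuclease Rnase2a, below the floor throughout (2.43, 3.13 and 3.95). Retnlb, a bactericidal resistin-like protein of goblet cells, did not pass 2-fold, with 10.85 in knockout colitis, 11.80 in WT normal and 11.83 in WT colitis. The 2 that were higher were the mucosal mast cell proteases Mcpt1 and Mcpt2. Mcpt1 had 6.78 in knockout colitis, between 5.57 in WT normal and 8.6 in WT colitis. Mcpt2 had 6.87, between 5.75 and 8.84. Relative to WT normal they were 2.31-fold and 2.17-fold higher. Of the macrophage type 2 markers other than Retnla, Mrc1 had 5.0 in both WT normal and knockout colitis, and Arg1 (2.94), Chil4 (1.98) and Chil3 (2.08 in WT normal and 2.12 in knockout colitis) were below the floor, where a difference could not be read.

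In the receptor pathway itself, 0 of 18 genes passed 2-fold in either direction. Stat6 had 7.20 in knockout colitis, 7.38 in WT colitis and 7.20 in WT normal, and Jak1 had 8.01 in both WT normal and knockout colitis. The cytokines Il4 (2.38) and Il13 (3.50) were below the floor, with the same value on all 3 arrays. Il13ra1, the chain that pairs with IL-4Rα to bind IL-13, had 8.46 in WT normal and 8.80 in knockout colitis, and Cish, a STAT-induced inhibitor of cytokine signalling, had 4.94 and 4.25 in that order.

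Goblet cell genes were mostly a little below WT normal. Of 21 genes, 15 had a difference below 0 and 2 above it, with a median of -0.13. Over all genes, 17.9% were below 0 and 16.4% above it. More than 2-fold lower were 2 genes (Clca1 and Foxa3), and 0 were higher, against 0.336% and 0.186% of all genes. Foxa3, a transcription factor of goblet cells, had 7.69 in WT normal and 6.56 in knockout colitis (2.19-fold lower) and was as low in WT colitis (6.38). The mucus components Muc2, Zg16 (12.12 on each array), Agr2 (12.07 in both pools) and Tff3 (11.80 in WT normal, 11.68 in knockout colitis) differed by at most 0.12. Beside the lists, Gsdmc4, a gasdermin C gene, had 7.85 in knockout colitis, 8.28 in WT colitis and 9.48 in WT normal (3.10-fold lower), and its close relative Gsdmc2 had 10.09, 10.27 and 10.69 in that order. Dpep1, a membrane dipeptidase, was 2.35-fold lower (9.01 in WT normal, 7.78 in knockout colitis), and Slc51a, a subunit of the basolateral bile acid transporter, was 2.48-fold lower (6.06 in WT normal, 4.75 in knockout colitis). The neuropeptide gene Grp, known for a growth and muscle-stimulating peptide of enteric nerves, was 2.95-fold lower, with 5.05 in knockout colitis against 6.61 in WT normal and 7.02 in WT colitis. In RNA from whole tissue, fewer cells of a type and less RNA per cell cannot be told apart.

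Digestive enzymes of the exocrine pancreas made up 17 of the 32 genes that were more than 4-fold lower. Ctrb1, chymotrypsinogen, had 10.55 in WT normal and 3.03 in knockout colitis, at least 93.7-fold lower. Cpa1, a carboxypeptidase, had 8.53 and 3.17 (at least 23.1-fold), and Cela3b, an elastase, had 7.95 and 2.76 (at least 15.5-fold), again in the order WT normal and knockout colitis. On the WT colitis array these were below the floor too, at 3.49, 3.17 and 3.05. Across the list of 26 genes, knockout colitis had 21 more than 2-fold below WT normal and 0 above it, with a median difference of -3.03, and WT colitis had 20 below and 0 above, with a median of -2.65. The summed signal of the list ranged from 13.0 to 13.9 on the log2 scale over the 3 arrays. Its highest members were the zymogen granule proteins Sycn (11.30 to 12.33 over the arrays) and Zg16, which is also a goblet cell product and on that list. Among the defining markers, Ptf1a, the acinar transcription factor, was below the floor everywhere (2.20 to 2.29). Pancreatic transcripts in the WT normal pool thus move with this comparison, and their part in it was not tested. Several of these probe sets share nearly identical family members, and the trypsins, elastases and chymotrypsins could not be fully separated. Without the list, 15 genes remained more than 4-fold lower, among them Reg1, which is also abundant in acinar cells.

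Pnliprp2 and Clps, a lipase and its cofactor, did not follow the rest of that list. Pnliprp2, pancreatic lipase-related protein 2, had 3.21 in knockout colitis against 8.66 in WT normal and 9.12 in WT colitis. The fold below WT normal was at least 25.3. Clps, colipase, had 6.23 against 9.48 and 8.86 in the same order, or 9.51-fold lower. Both were high on the WT colitis array, where Ctrb1 and Cpa1 were below the floor.

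**Figure D3:**
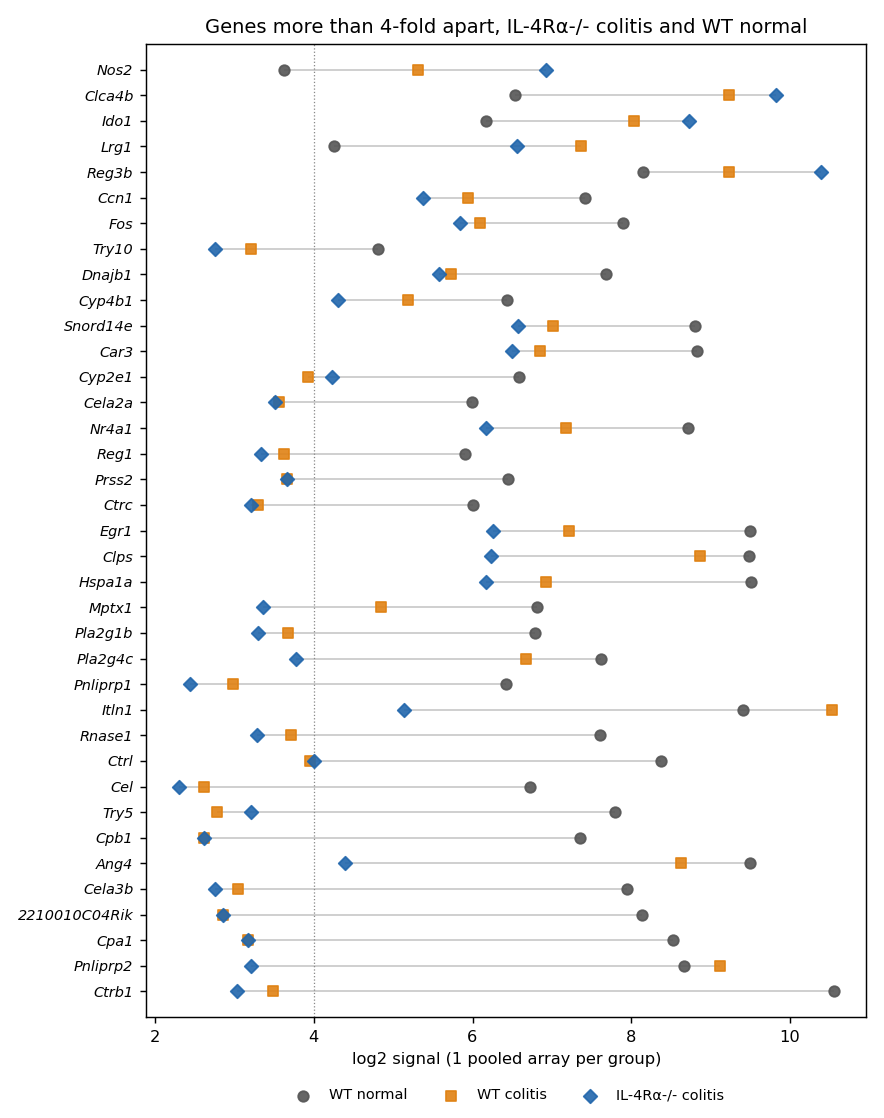
Log2 signal (x axis) of the 37 genes more than 4-fold apart between knockout colitis and WT normal, 1 point per pooled array, with the dotted line at the floor of 4. Nos2 has 3.63, 5.31 and 6.93 in WT normal, WT colitis and knockout colitis, and Itln1, Ang4, Pla2g4c, Pnliprp2 and Clps are low in knockout colitis alone.

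Immediate early genes, whose transcripts appear within minutes of stimulation and of tissue handling, were lower as a group. Of 26 genes, 6 lay more than 2-fold below WT normal and 0 above it, 24 had a difference below 0, and the median was -0.485, against 0 over all genes. Egr1, a zinc finger transcription factor, had 6.26 in knockout colitis and 9.50 in WT normal (9.45-fold lower), with 7.21 in WT colitis. Nr4a1, an orphan nuclear receptor, was 5.82-fold lower (6.17 and 8.71), and Fos, a subunit of the transcription factor AP-1, was 4.14-fold lower (5.84 and 7.89). Dusp1, a phosphatase that inactivates MAP kinases, was 2.22-fold lower (7.84 and 8.99) and had 8.99 in WT colitis as well. In WT colitis 6 of the 26 lay more than 2-fold below WT normal and 0 above, with a median of -0.295, so that both DSS pools lay below WT normal. Jun (7.52) and Fosl1 (4.18) had the same value in both pools.

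Heat shock genes, and genes of the epidermal growth factor (EGF) receptor response chosen after values had been seen, showed the same direction. Hspa1a, an inducible HSP70, had 6.17 in knockout colitis, 6.92 in WT colitis and 9.51 in WT normal (10.1-fold lower), and Dnajb1, its HSP40 partner, had 5.58, 5.73 and 7.68 (4.29-fold lower). They were the 2 of 14 heat shock genes past 2-fold, and the constitutive Hspa8 had 11.67 in WT normal and 11.65 in knockout colitis. On the list of EGF receptor family members and ligands, 2 of 14 genes lay more than 2-fold below WT normal and 0 above it, with a median of 0. A further list was put together after values had been seen, so its count was open to choice. On it, 5 of 18 EGF receptor response and ERK feedback genes lay more than 2-fold below WT normal and 0 above it. These were Hbegf, an EGF receptor ligand (7.94 in WT normal, 5.99 in knockout colitis, 3.86-fold lower), and, in the same order, Phlda1 (9.28 and 7.36), Trib1 (6.85 and 5.39), Errfi1, an EGF receptor inhibitor (9.47 and 8.07), and Spry4, a Sprouty inhibitor (6.52 and 5.32). The WT colitis signals were 6.04 for Hbegf and 7.61 for Phlda1, close to those in knockout colitis, and 8.90 for Errfi1 and 6.24 for Spry4, closer to WT normal.

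The other genes more than 4-fold lower had mixed roles. Cyp2e1, a cytochrome P450 that oxidises small molecules, had 4.23 in knockout colitis, 3.93 in WT colitis and 6.58 in WT normal (5.10-fold lower), and Cyp4b1, another P450, had 4.30, 5.19 and 6.43 (4.38-fold lower). Car3, a carbonic anhydrase abundant in fat and muscle, was 5.03-fold lower (6.50 in knockout colitis, 8.83 in WT normal). Beside it, 1 of 18 adipose tissue genes passed 2-fold, and that was Car3 itself, with 9 of the 18 below WT normal and 1 above it. Cidec was 1.91-fold lower (5.02 and 5.95), and Adipoq, the defining adipokine, was below the floor (3.26 and 3.90). The list's summed signal was 10.1 in knockout colitis, 10.4 in WT colitis and 10.6 in WT normal on the log2 scale. The part of adipose tissue in the Car3 difference was not tested. Reg1, a regenerating islet-derived lectin abundant in acinar cells, had 3.34 in knockout colitis and 5.91 in WT normal, at least 3.76-fold lower, and 3.63 in WT colitis. Ccn1, a matricellular protein, and Snord14e, a small nucleolar RNA, were 4.14-fold and 4.69-fold lower. In contrast to Ang4 or Itln1, each of these genes past 4-fold was also more than 2-fold below WT normal in the WT colitis pool.

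Genes higher in knockout colitis than in WT normal were led by Nos2, Clca4b and Ido1, followed by Lrg1 and Reg3b. Nos2, inducible nitric oxide synthase, had 6.93 in knockout colitis, 5.31 in WT colitis and 3.63 in WT normal, at least 7.62-fold higher than in WT normal. Ido1, which degrades tryptophan and is induced by interferon-γ, had 8.73, 8.03 and 6.17 in the same order, or 5.90-fold higher, and was the 1 of 18 tryptophan and serotonin genes past 2-fold. Clca4b, of the calcium-activated chloride channel regulator family, had 9.82, 9.23 and 6.54, or 9.71-fold higher. For these 3 genes both DSS pools exceeded WT normal, and the IL-4Rα-/- pool had the highest signal. Lrg1, a leucine-rich acute-phase glycoprotein, was 4.96-fold higher, with 6.56 in knockout colitis against 4.25 in WT normal, and was higher still in WT colitis at 7.37.

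Of 36 antimicrobial and acute-phase proteins, 5 of each direction differed more than 2-fold. Reg3b and Reg3g, C-type lectins that bind the bacterial cell wall, had the highest signals of those that were higher. Reg3b had 10.39 in knockout colitis, 9.23 in WT colitis and 8.15 in WT normal (4.72-fold higher than in WT normal), and Reg3g had 10.22, 9.04 and 8.32 (3.73-fold). In both lectins the order was WT normal, WT colitis, knockout colitis. Serpina3n, a serine protease inhibitor (7.10 in WT normal, 8.17 in knockout colitis, 2.10-fold higher), and Lcn2, the siderophore-binding lipocalin 2 (3.87 and 5.16 in that order, at least 2.23-fold), were much higher in WT colitis, at 10.68 and 8.91. The 5 that were lower were Ang4, Itln1, Reg1, Reg2 (3.70 in WT normal and 2.29 in knockout colitis, below the floor) and Reg4, a lectin of secretory epithelial cells (11.69 and 10.60, 2.13-fold). The Reg family thus held members that were higher and members that were lower. The lower members were also low in WT colitis, with Reg1 at 3.63, Reg2 at 2.36 and Reg4 at 10.14. The part of pancreatic transcripts in the differences of Reg1 and Reg2 was not tested. Outside this list, Lbp, the lipopolysaccharide-binding protein, was 3.14-fold higher (5.33 in WT normal, 6.98 in knockout colitis).

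Among 21 enzymes and partners that generate reactive oxygen species or nitric oxide, 9 had a difference above 0 and 0 below it, against 16.4% and 17.9% of all genes. More than 2-fold higher were 3 of the 21, and 0 were lower, against 0.186% and 0.336% of all genes. Besides Nos2 these were Nox1, the catalytic subunit of the epithelial NADPH oxidase, and Duoxa2, the maturation factor of dual oxidase 2. Nox1 had 8.36 in knockout colitis and 6.97 in WT normal (2.62-fold higher), with 5.47 in WT colitis. The qPCR of the study also covered untreated mice, where it reported more Nox1 mRNA in knockout colon than in WT colon. Duoxa2 had 8.74 in knockout colitis and 7.14 in WT normal (3.03-fold higher), with 7.49 in WT colitis. Duox2 itself had 8.23 and 7.46 in that order (1.71-fold), and the partners of Nox1 were nearly equal in both pools, with Noxo1 at 7.05 and 6.95 and Noxa1 at 6.57 and 6.51. Of the phagocyte oxidase genes, Cybb had 6.25 in knockout colitis and 5.86 in WT normal, while Cyba (8.39), Ncf1 (4.63) and Ncf4 (4.92) had the same value in both.

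Several epithelial genes were higher than in either WT pool. Il18, an inflammasome-processed cytokine made by the epithelium, had 7.75 in knockout colitis, 5.94 in WT normal and 6.30 in WT colitis (3.51-fold above WT normal), and Casp1, which cleaves it, had 7.75, 6.77 and 7.43 in that order (1.97-fold). Ms4a12, a membrane protein of colonocytes, had 9.56, 7.69 and 8.4 (3.66-fold), and Ptk6, an epithelial tyrosine kinase, had 6.53, 5.04 and 5.95 (2.81-fold). The order WT normal, WT colitis, knockout colitis held in these 4 genes. A further group, like Nox1, was below WT normal in the WT colitis pool and above it in the knockout pool. Of this group, the study had already picked Nox1, Muc1 and Slc37a2 for their difference between the DSS pools. Muc1, a transmembrane mucin, had 7.49 in knockout colitis, 6.28 in WT normal and 5.23 in WT colitis (2.31-fold above WT normal). Slc37a2, a sugar phosphate exchanger, had 7.21, 5.56 and 5.19 in that order (3.14-fold), and Cd177, known as a neutrophil surface protein, had 9.10, 7.94 and 7.14 (2.23-fold). Of the 21 genes on the neutrophil list, 2 were more than 2-fold higher (Cd177 and Lcn2) and 0 lower, 9 had a difference above 0 and 2 below it, and 13 were below the floor on all arrays, among them Mpo (2.32 on each array) and S100a9 (3.22 in WT normal, 3.26 in knockout colitis).

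Another group had similar signals in both DSS pools. Steap4, a metalloreductase, had 6.44 in knockout colitis, 6.27 in WT colitis and 4.80 in WT normal (3.12-fold above WT normal). Edn1, the vasoconstrictor endothelin 1, had 6.85, 6.65 and 5.25 in that order (3.03-fold), and Dhrs9, a retinol dehydrogenase, had 7.14, 7.36 and 5.60 (2.91-fold). Tifa, an adaptor in the response to a bacterial sugar, had 6.97, 6.68 and 5.66 (2.48-fold). In these 4 genes the DSS pools differed from each other by at most 0.29 and both exceeded WT normal by more than 2-fold. Vcam1, an endothelial adhesion molecule, Pappa, a protease of insulin-like growth factor binding proteins, and Mt2, a metallothionein, were also higher than in WT normal (2.16-fold, 2.13-fold and 2.17-fold), and were higher in WT colitis than in knockout colitis. Vcam1, for example, had 6.09 in knockout colitis, between 4.98 in WT normal and 7.34 in WT colitis.

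Among T and NK cell genes, those of cytotoxic granules differed most from WT normal. Of the 26, 14 were below the floor on all arrays, 10 had a difference above 0 and 3 below it. Over all genes, 16.4% were above 0 and 17.9% below it. The 2 that passed 2-fold were both higher, namely Gzmb (5.63 in knockout colitis, 4.30 in WT normal, 4.79 in WT colitis, 2.51-fold) and Gzma (5.38, 4.26 and 4.69, 2.17-fold). Their WT normal signals were close to the floor. An offset of 32 added to linear signals lowered the Gzmb difference from 1.33 to 0.657. Cd3g, a T cell receptor subunit, had 5.82 and 5.35 in knockout colitis and WT normal, Cd3e had 5.85 and 5.68, and Cd8a had 4.66 and 4.28. The mast cell list had 2 of 18 genes more than 2-fold higher, the proteases given above, and 9 of the 18 were below the floor on all arrays. Cpa3, the mast cell carboxypeptidase, had 4.29 against 3.50 in WT normal, and the surface receptor Kit had 7.19 in both pools. The list's summed signal was 9.35 in knockout colitis, 10.5 in WT colitis and 8.98 in WT normal on the log2 scale. No member of the lists for B and plasma cells (21 genes), macrophages and monocytes (24), eosinophils (10) or endothelium (25) passed 2-fold. Below the floor on all arrays, where a difference could not be read, were 1, 3, 7 and 3 of these genes, respectively. Among B and plasma cell genes, 10 had a difference above 0 and 5 below it, and Ighm, the IgM heavy chain, had 8.61 in knockout colitis, 7.68 in WT normal and 10.00 in WT colitis. One variable segment, Igkv4-91, was 2.79-fold lower in knockout colitis (6.48) than in WT normal (7.96), which had the same value as WT colitis. It was the 1 of 11 immunoglobulin genes, grouped after values had been seen, past 2-fold, while 6 of them were above WT normal and 4 below it, with a median of 0.49. The probe sets of 1 segment disagreed, since Igkv19-93 had a difference of -0.96 on one and of 1.57 on another.

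More interferon-stimulated genes lay below WT normal than above it. Of 30 genes, 2 lay more than 2-fold below WT normal and 1 above it, with 16 differences below 0 and 6 above it and a median of -0.10. Irf7, a transcription factor that amplifies type I interferon, had 7.44 in knockout colitis, 8.56 in WT normal and 8.70 in WT colitis (2.17-fold below WT normal). Rsad2, the antiviral protein viperin, had 4.81, 5.82 and 6.58 in that order (2.01-fold), and Usp18 (6.84, 7.78 and 8.50) and Oas2 (5.84, 6.74 and 7.68) followed without passing 2-fold. These 4 genes were lowest in knockout colitis and highest in WT colitis. Besides Ido1, the 5 above WT normal were Iigp1, Ifit2, Cxcl9, Zbp1 and Gbp3, by 0.23 to 0.53 on the log2 scale. In WT colitis the list had 3 genes more than 2-fold above WT normal and 0 below it, with a median of 0.56.

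No matrix gene on the lists, and no acute inflammatory gene but Nos2 and Il18, was more than 2-fold from WT normal. In knockout colitis, 0 of 37 fibroblast and matrix genes and 0 of 26 matrix metalloproteinase and inhibitor genes passed 2-fold, against 7 and 10 higher in WT colitis. Of the matrix genes 23 were below WT normal and 4 above it, with a median of -0.09, and of the metalloproteinase list 9 were below and 7 above. The members farthest above WT normal in these lists were Grem1 and Mmp13. Grem1, a BMP antagonist, had 8.39 in knockout colitis, 10.37 in WT colitis and 7.42 in WT normal, and Mmp13, a collagenase, had 5.43, 7.70 and 4.66 in that order. Among 26 acute mediators, 2 were higher (Nos2 and Il18) and 0 lower, against 9 higher in WT colitis, and 12 were below the floor on all arrays. In knockout colitis, 11 had a difference above 0 and 4 below it. Il1b had 4.96 in WT normal and in knockout colitis and 5.71 in WT colitis, and Ptgs2, cyclooxygenase 2, had 5.85 in knockout colitis, 6.85 in WT normal and 8.20 in WT colitis. No other mediator of the list passed 2-fold.

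Genes of the absorptive epithelium and of its junctions were mostly within 2-fold of WT normal. Of 39 colonocyte genes, 1 was more than 2-fold higher (Slc37a2) and 1 lower (Slc51a), with 15 above 0 and 15 below it, while 0 were higher and 6 lower in WT colitis. Atp12a, a proton pump, had 7.82 in both knockout colitis and WT normal and 5.41 in WT colitis. Aqp8, a water channel, had 9.67, 9.59 and 8.03 in knockout colitis, WT normal and WT colitis, and Tgm3, a transglutaminase, had 8.71, 8.48 and 5.07. For Atp12a and Tgm3, the study had already picked these genes for their difference between the DSS pools. None of 28 junction genes passed 2-fold, with Cldn8, a claudin of the distal colon, at 8.22 in knockout colitis and 7.45 in WT normal. In the cell cycle list, 18 of 32 genes were above WT normal, 0 below it and 0 past 2-fold, with a median of 0.07 and Top2a at 6.47 in knockout colitis and 5.99 in WT normal. Smooth muscle genes ran the other way by small amounts, with 15 of 22 below WT normal, 0 above it, 0 past 2-fold and a median of -0.23, and Des, desmin, at 9.82 and 10.26 in that order. Sterol and fatty acid synthesis had 22 of 29 genes below WT normal and 3 above it, with a median of -0.28 and 0 past 2-fold. Of all 19938 genes, 16.4% were above WT normal and 17.9% below it.

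**Figure D4:**
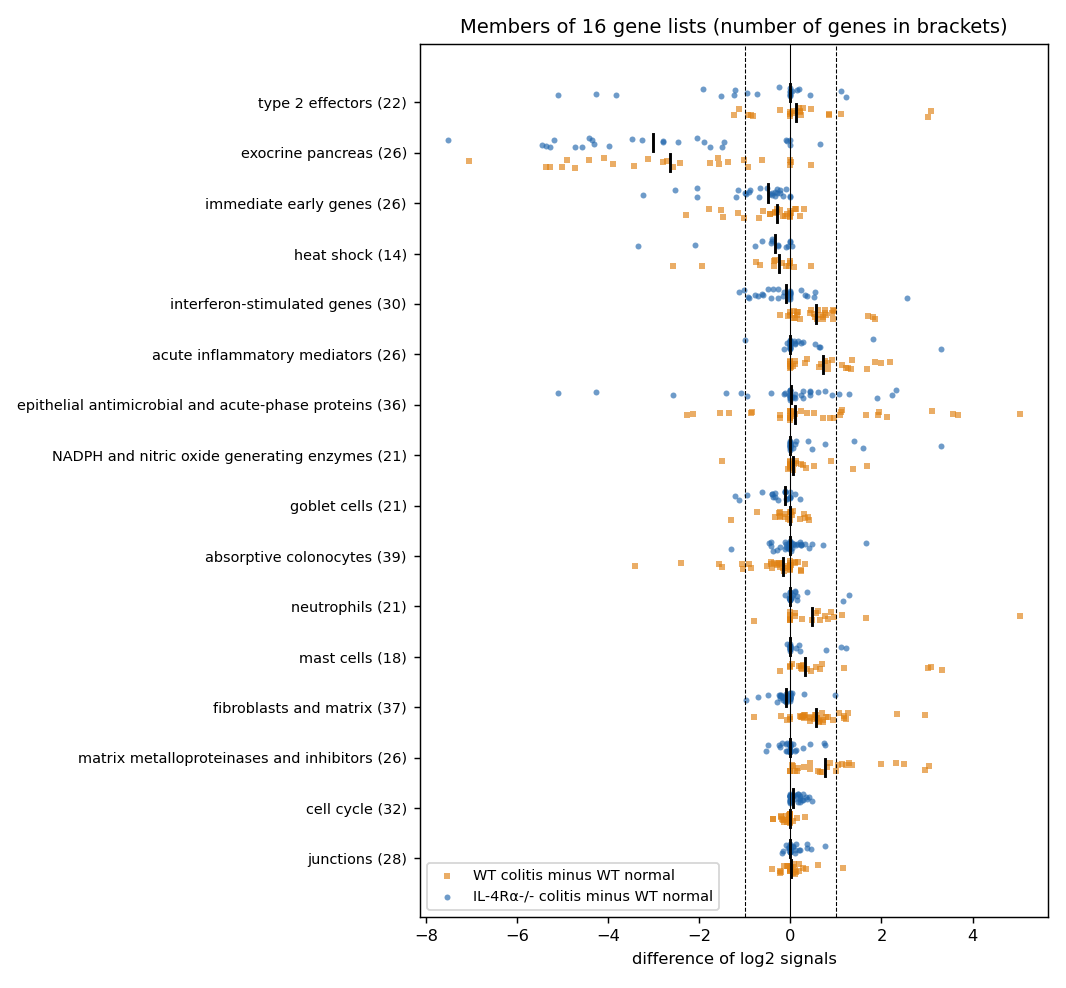
Difference of log2 signals from WT normal (x axis) for the members of 16 gene lists, in knockout colitis (blue circles) and WT colitis (orange squares), with a black bar at each median and dashed lines at 2-fold. Both differences use the same WT normal array. Exocrine pancreas genes lie to the left in both pools, with medians of -3.03 and -2.65, and matrix genes lie to the right in WT colitis.

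Of the 51 gene lists, 28 had no member more than 2-fold higher or lower, 39 had a median of 0, and 50 had a median within 0.5 of 0. The list outside that range was the exocrine pancreas.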

How the data were processed

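RNA of 6 IL-4Rα-/- colitis (knockout colitis), 3 WT colitis and 4 WT normal mice was pooled by the authors, and each pool was hybridised to 1 GeneChip Mouse Gene 1.0 ST array. Per the labels a Cy3 kit was used for labelling, which is a different platform's kit. The values deposited by the authors are log2 signals with 2 decimals for 28944 probe sets, on a common scale, and how they were summarised and normalized was not given in the sources used here. Files of probe intensities were not analysed here, so signal over background rests on the receptor probe sets described above. The number of arrays, 1 per group, limits the precision.

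Differences of log2 signals were computed as deposited and called at 4-fold, the threshold of the study, and at 2-fold. Symbols came from the platform annotation: 21789 probe sets had 1 symbol, 1621 had several and 5534 had none, and 21698 were matched to RefSeq by gene number. A gene with several probe sets was represented by the one with the highest mean. Named genes were the 25 largest differences in each direction with a signal of 4 or more, any other past 4-fold, list members past 2-fold or up to 4 members of a list with none, Il4ra, the heat map genes and cell type markers. Some genes that did not pass a threshold, such as Jun, Mrc1 and Kit, were named after their values were seen. The members, the 51 lists and 7 further groups were chosen with earlier results of these data known, and no list was tested. Pooled mice were compared by exact permutation tests with Benjamini-Hochberg adjustment over 3 measures, whose values had been seen before. Alternatives were quantile normalization, median centring, 2 filters on dim probe sets, an offset of 32, a floor of 4, other choices of probe set and leaving out each mouse. Leaving out the exocrine pancreas list was chosen after seeing the data. Counting was tested on simulated data. The work ran in Python 3.11.15 with scipy 1.17.1, pandas 2.3.3, numpy 2.4.6 and matplotlib 3.10.9.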

Additional observations from a re-analysis of the deposited data

Results flagged for a closer look

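Among the 6 knockout colitis mice, 1 had a disease activity index of 3.0, set apart from the others of its pool by 0.667 of the group's range, above Dixon's 95% critical value for 6 values. For normally distributed values, about 1 in 20 groups is set apart in this way by chance. The index is a score with tied values, and other measures and groups were examined too, so that rate need not hold here. The same mouse had the shortest colon of its pool, 8.2 cm, and its RNA is part of the single knockout colitis array.

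Among the 7155 probe sets without a single gene symbol, which the comparison left out, 2 were more than 4-fold higher in knockout colitis than in WT normal. Both are unnamed here. The first had log2 signals of 9.10 in knockout colitis, 9.47 in WT colitis and 5.43 in WT normal, a difference of 3.67 between knockout colitis and WT normal, and the second had 7.82, 9.12 and 5.36 in the same order, a difference of 2.46.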

How the results depend on the processing

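The 4 counts of probe sets past 4-fold and 2-fold stayed within 1.5 times their value under quantile normalization, median centring, both filters on dim probe sets, a floor of 4, 1 probe set a gene and all probe sets. An offset of 32 added to linear signals, by which dim differences shrink, left 3 more than 4-fold higher and 16 lower, and 19 more than 2-fold higher and 44 lower. Without the exocrine pancreas list, an alternative chosen after seeing the data, 15 were more than 4-fold lower. Of 51 named genes recomputed, 47 moved by more than 0.193 under the offset, and 0 changed direction under any setting. Ak4 had a difference of 0.76 as the mean of its probe sets in place of 1.29. The exocrine pancreas median was -1.54 with the offset and -2.44 with the floor. With probe sets below the median signal left out, 7 of 51 list medians moved: exocrine pancreas to -3.9, neutrophils from 0 to 0.76, mast cells to 0.22, antimicrobial and acute-phase proteins to 0.27, adipose tissue to -0.23, and type 2 effectors (from 0) and eosinophils to -0.37 each. With 1 mouse left out, the difference in body weight ranged from -5.87 to -3.73 (exact permutation p from 0.0238 to 0.0952, adjusted p from 0.0714 to 0.286), that in colon length from -1.45 to -0.71 cm and that in the disease activity index from 0.6 to 1.2. No paired analysis was possible because each group has 1 array and the mice carry no shared replicate numbers. Differences near the floor of 4 are limited by background signal, and scatter between arrays could not be measured.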

Other observations

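Of the 7155 probe sets without a single symbol, 13 were more than 4-fold lower in knockout colitis than in WT normal. Among these, 6 carried the names of several amylase genes and 2 those of several trypsin genes, digestive enzymes of the pancreas. They were as low in WT colitis, with 8.59, 2.53 and 2.33 on the WT normal, WT colitis and knockout colitis arrays for the amylase probe set that differed most. A probe set shared by Hspa1a and Hspa1b had 10.81, 8.37 and 7.33 on the same arrays. These probe sets share sequence between genes, and no single gene is named from them.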
